A study of Mus musculus with 6 samples.

Results

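Of the 690 miRNA names on the array, 33 ended in a registry version tag such as _v14.0 or _v18.0, and all 33 are described here. They were chosen by that ending, with earlier results of these data known, and the other 657 names carried no tag. The names were measured by hybridising RNA to 1-colour microarrays in cells sorted from transgenic mice that carry GFP driven by smooth muscle actin (SMA) regulatory sequence. The sorted cells of both groups lacked CD45, a surface marker of blood cells, and CD31, a surface marker of endothelium. The skin group held 3 preparations of dermal cells with low GFP, which the labels call fibroblast-like cells. The wound group held 3 preparations of cells with high GFP taken 7 days after injury, which the labels call myofibroblasts. Preparations keep the numbers of their titles, 1, 2 and 5 for skin and 3, 4 and 6 for wound. Strain, age, sex and the number of animals per preparation were not given in the sources used here. The p-values therefore weigh each difference only against the spread among these preparations, and some of that spread may be technical. Every difference covers tissue and GFP level at once, since both changed. In such bulk RNA fewer cells of a type and less RNA per cell cannot be told apart.

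A microRNA is a short RNA cut from a hairpin precursor, and the public miRNA registry assigns each one a number in order of submission. Later registry releases withdrew a set of entries, many of them because the sequence matched a fragment of an abundant RNA such as a tRNA or rRNA and not a processed hairpin. Array designs of that period still carried probes for them. miR-720 is a well known case, a fragment of a threonine tRNA, and the miR-1937 names have been linked to tRNA as well. Because tRNA and rRNA are far more abundant in total RNA than miRNAs, a probe for such a fragment can be very bright.

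The label of the set could be checked only in part. No probe or target sequence of these names was used here, so the RNA of origin of each name was not checked. A RefSeq miRNA table matched 2 of the 33 tagged names once the tag was removed, against 534 of the 657 names without a tag. The 2 matches were the miR-582 arms, and not one of the 33 had a twin without a tag on the array. Several tagged names belong to ordinary miRNA families and not to any withdrawn family known as an RNA fragment: miR-582-3p, miR-582-5p, miR-466b-5p, miR-466c-5p and miR-669a. The set is therefore best described by its naming rule. The tag read 14 for 6 names, 15 for 13, 16 for 9, 17 for 2 and 18 for 3.

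The spots of each name give the data directly. A probe counted as detected when the scanner marked over 50% of its spots as well above background. By that measure 19 of the 33 tagged names (57.6%) were detected on all 6 arrays, against 137 of 657 untagged names (20.9%). miR-466c-5p was detected on the 3 skin arrays and on 2 wound arrays, and miR-197 on 1 skin array. The other 12 were detected on no array, as were 404 untagged names. Each array detected 19 to 21 tagged names.

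Detection differed with the registry number. Of the 18 tagged names numbered from miR-1892 to miR-2183, 16 were detected on all arrays, against 3 of the other 15. All 12 tagged names numbered from miR-2132 to miR-2146 were detected on every array. The 12 names that no array marked as well above background were miR-1959, miR-2182, miR-220, miR-464, miR-466b-5p, miR-469, miR-582-3p, miR-582-5p, miR-685, miR-702, miR-715 and miR-805. Their signal did not exceed 11.8 intensity units on any array, and the brightest negative control reached 4.42. miR-582-5p was the highest of them, and its arms come from an intron of Pde4d, which encodes a phosphodiesterase. miR-197, detected once, reached 33.8. These 13 were left out of the main test. A fit without the filter on dim names included them. It gave an adjusted p under 0.05 in limma for 0 of the 33 tagged names and for 110 of all 690.

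A pair of tagged names gave the largest shares of the signal on these arrays. mmu-miR-2142_v14.0 was the brightest name in mean share of the 690, and mmu-miR-1937b_v16.0 ranked second. mmu-miR-2141_v15.0 ranked 4, mmu-miR-720_v18.0 ranked 7 and mmu-miR-2138_v15.0 ranked 12. Tagged names made up 4 of the 10 brightest and 7 of the 20 brightest. The tags are left out of the names from here on. A share below is the percentage of the summed positive signal of all non-control names on an array. It is a share of brightness and not of molecules, because probes differ in how strongly they bind and glow.

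Tagged names together held 58.5%, 60.0% and 51.5% of the signal on skin arrays 1, 2 and 5, and 75.01%, 69.1% and 71.2% on wound arrays 3, 4 and 6. The groups did not overlap, with means of 56.7% ± 4.53 and 71.8% ± 3.01 (SD, n = 3 each), a difference of 15.1 percentage points. No test was made of this sum. The summed tagged signal itself differed less, at 275655, 266117 and 269478 units in skin and 289418, 312084 and 322466 in wound. That is a mean of 307990 in wound over 270417 in skin, a ratio of 1.14. The summed untagged signal moved the other way and by more, from a mean of 208797 ± 39836 in skin to 122101 ± 22773 in wound (SD, n = 3 each), 1.71 times as high in skin. On single arrays the untagged sum was 195369, 177411 and 253612 in skin and 96399, 139764 and 130139 in wound.

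The brightest pair held most of this signal. miR-2142 and miR-1937b together held 47.3%, 51.2% and 41.1% of the signal in skin and 65.3%, 57.5% and 60.5% in wound. The other 31 tagged names held 11.2%, 8.79% and 10.4% in skin and 9.74%, 11.6% and 10.74% in wound, and these ranges overlapped. Their means were 10.2% ± 1.24 and 10.696% ± 0.934 (SD, n = 3 each). With the brightest pair left out of the total as well, those 31 names held 21.3%, 18.0% and 17.7% of the remaining signal in skin and 28.0%, 27.3% and 27.2% in wound. These ranges did not overlap, with means of 19.0% ± 1.99 and 27.5% ± 0.469 (SD, n = 3 each).

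**Figure D1:**
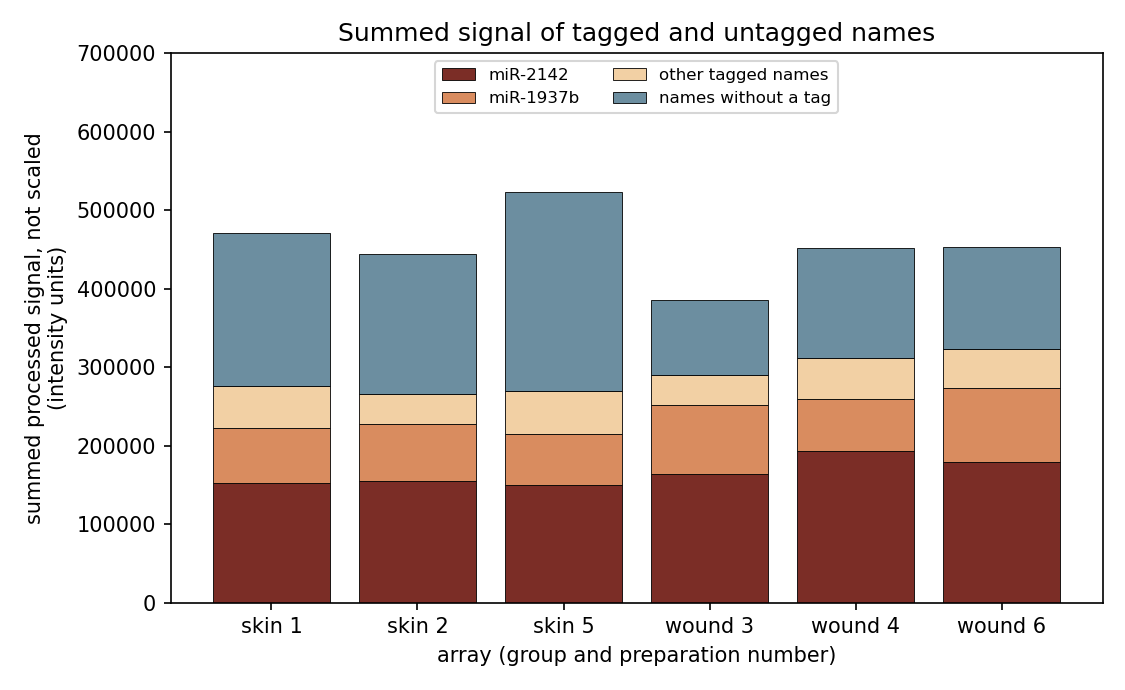
Stacked bars give the summed processed signal of each array in intensity units, not scaled, split into miR-2142, miR-1937b, the other 31 tagged names and the names without a tag. The untagged segment is shorter on all 3 wound arrays, where its sum is at most 139764 units, than on the skin arrays, where it is at least 177411.

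The brightest untagged names give the setting of these shares. They were miR-199a-3p, let-7c-5p, let-7a-5p and let-7b-5p, each with a larger share on every skin array, and miR-21a-5p, a miRNA that is abundant in wounds and fibrotic tissue, with a larger share on every wound array. miR-21a-5p took 1.24%, 1.01% and 1.56% of the signal in skin and 3.98%, 4.62% and 4.59% in wound. miR-199a-3p, a mesenchymal miRNA, took 3.74%, 4.47% and 5.15% in skin and 1.85%, 2.39% and 2.22% in wound.

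Markers of other cell types were read beside these results. Of 5 mesenchymal markers, 4 were detected on all 6 arrays, and their summed signal was 22763 to 34444 units in skin and 11138 to 16066 in wound, without overlap. miR-199a-3p, given above, made up most of that sum on every array. It read 17597, 19838 and 26942 units in skin and 7139, 10809 and 10063 in wound. Of 5 blood-cell markers 4 were detected nowhere, miR-142-3p, miR-142-5p, miR-144-3p and miR-223-3p, and none on all arrays. All 4 striated-muscle markers were detected nowhere. Of 2 endothelial markers miR-126-3p was detected on all 6 arrays and miR-126-5p on none, and the summed signal of the pair was 64.1 to 72.5 in skin and 60.8 to 78.7 in wound. The 6 keratinocyte markers summed to 165 to 240 units in skin and 3.21 to 5.80 in wound, with miR-141-3p and 3 miR-200 members detected nowhere. The part of these markers in the results on tagged names was not tested.

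To compare groups, each array was divided by the 75th percentile of the 275 probes detected on all 6 arrays, 36 of which belonged to tagged names. That percentile was 1487, 1244 and 1772 units in skin and 786, 1095 and 1136 in wound. Dividing by it therefore raised wound against skin by 0.58 on the log2 scale, and by less for names that reach the floor set for dim signals. Each tested name is given with and without this shift. A negative value means lower in wound. With scaling, 5 of the 20 tested tagged names (25%) were higher in wound at an adjusted p under 0.05 in limma, and 0 were lower. Over all 222 tested names the shares were 44.1% higher and 20.7% lower, so the tagged share of higher calls stood below the background. At an unadjusted p under 0.05 the tagged count was 7. A name could be tested through detection in 1 group alone, while 19 of the 20 tagged names were detected on all arrays. With the fit limited to the 156 names detected on all arrays, 6 of 19 tagged names were higher and 0 lower. Of all 156 names, 59 were higher and 37 lower. Without scaling limma called 0 of the 20, with 4 at an unadjusted p under 0.05, while 24.3% of all tested names were called higher and 24.3% lower.

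Among the 20, the median log2 difference was 0.33 with scaling, beside 0.38 over all tested names. Without scaling it was -0.26 beside -0.09. Among names detected on all 6 arrays the order was the other way round. There the median was 0.35 for the 19 tagged and 0.22 for the 137 untagged names with scaling, and -0.23 and -0.35 without. With scaling 15 of the 20 values lay above 0, and without scaling 6 did. Groups did not overlap for 7 tagged names with wound higher and for 0 with wound lower after scaling, beside 48.6% and 21.2% of all tested names. Without scaling the counts were 2 and 3, beside 26.1% and 30.2%.

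**Figure D2:**
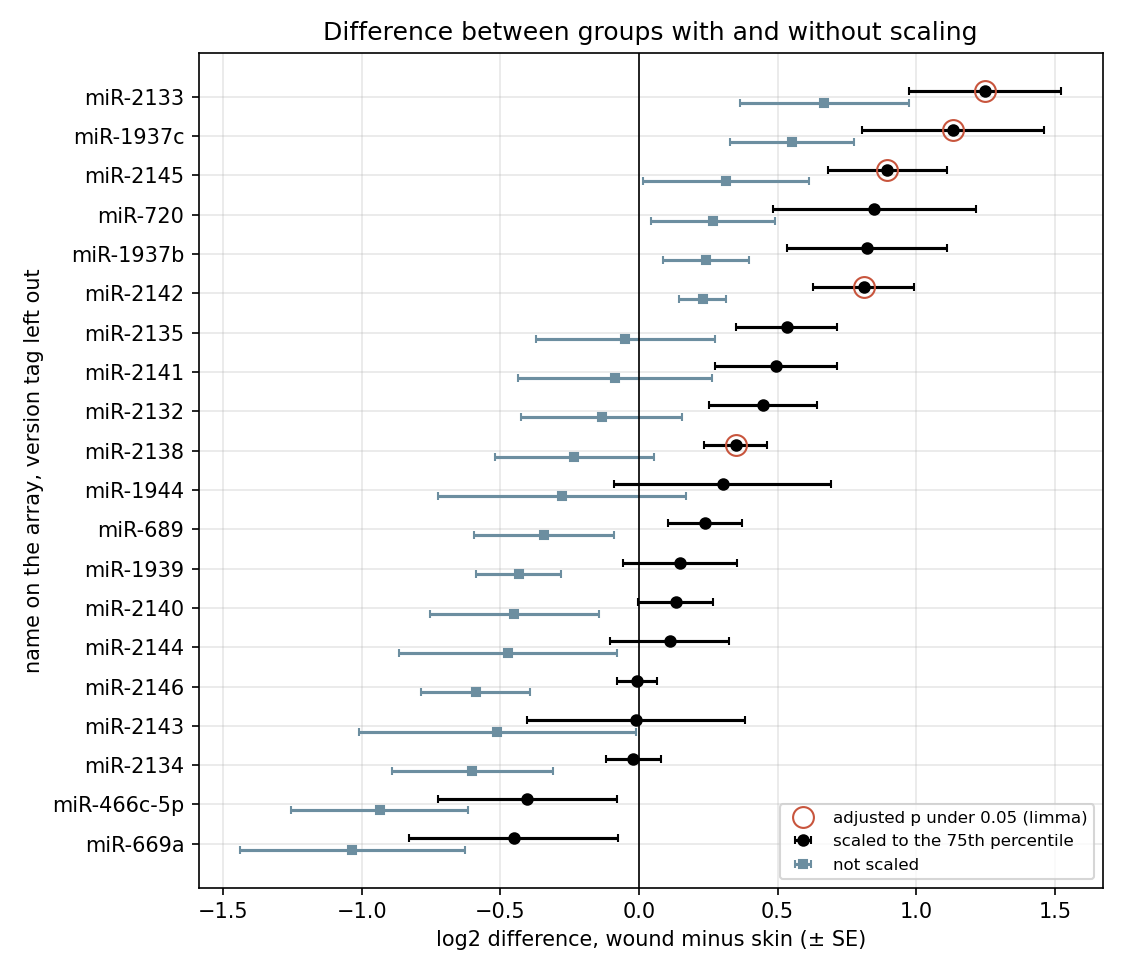
Points give the log2 difference, wound minus skin, of each of the 20 tested tagged names with its standard error, after scaling to the 75th percentile (black) and without scaling (blue); rings mark an adjusted p under 0.05 in limma. The blue points lie about 0.58 to the left of the black ones, 5 black points carry a ring and no blue point does.

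miR-2142 had a narrow range of signal before scaling. It read 151961, 155096 and 149203 units in skin and 163314, 193343 and 179437 in wound. Every wound array was above every skin array, by a small margin. The mean was 152087 ± 2949 in skin and 178698 ± 15028 in wound (SD, n = 3 each). Its share was 32.3%, 35.0% and 28.5% in skin and 42.3%, 42.8% and 39.6% in wound. With scaling miR-2142 rose by 0.81 ± 0.18 (log2 difference ± SE), with an adjusted p of 0.013 in limma. Without scaling the log2 difference was 0.23 ± 0.09, with an adjusted p of 0.079. Over the 6 arrays its highest signal was 1.30 times its lowest, and 0 of the 137 untagged names detected on all arrays had a smaller range. The median range was 3.03-fold for those untagged names and 2.11-fold for the 19 tagged ones. Its within-group SD on the log2 scale was 0.09 without scaling, where the lowest untagged value was 0.07, and 0.24 with scaling, above the untagged median of 0.16.

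The bright end of the scanner bears on that small range. No spot was saturated on any array. A control spot, hur_2, spanned 144646 to 242792 units with a mean of 183285, near the average of the 2 miR-2142 probes. The brighter of these probes had a higher mean, 220727 units, and hur_2 passed that level on wound 4 only. The 2 probes of miR-2142 differed in the size of the difference. Without scaling the brighter probe gave a log2 difference of 0.11 and the dimmer 0.48. Whether the brightness of these probes compressed the difference was not tested.

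miR-1937b, miR-1937c and miR-720, the names linked to tRNA, were alike in having wound 4 as the lowest wound array. miR-1937b read 70804, 72030 and 65678 units in skin and 88524, 66301 and 94416 in wound. Wound arrays 3 and 6 were above all skin arrays, while wound 4 lay within the skin range. Its share was 15.03%, 16.2% and 12.6% in skin and 22.9%, 14.7% and 20.9% in wound. Its log2 difference was 0.82 ± 0.29 with scaling (adjusted p = 0.055 in limma) and 0.24 ± 0.15 without (adjusted p = 0.26), so neither passed.

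miR-1937c, a far dimmer name of the same stem, read 783, 737 and 663 units in skin and 1136, 784 and 1352 in wound. Its wound 4 value lay just above the highest skin value, and the groups did not overlap. With scaling miR-1937c rose by 1.13 ± 0.33 (log2 difference ± SE, adjusted p = 0.030 in limma), and without scaling the difference was 0.55 ± 0.22 (adjusted p = 0.10). Signal of miR-1937b RNA on the miR-1937c probes and of miR-1937c itself cannot be told apart here.

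miR-720 read 7242, 8946 and 7536 units in skin and 11139, 6960 and 10994 in wound. Wound arrays 3 and 6 were again above all skin arrays, and wound 4 was the lowest of all 6. Its share was 1.54%, 2.02% and 1.44% in skin and 2.89%, 1.54% and 2.43% in wound. The log2 difference was 0.85 ± 0.37 with scaling (adjusted p = 0.099 in limma) and 0.27 ± 0.22 without (adjusted p = 0.38). Its probes differed most among the 16 tagged names with 2 or more probes detected on all arrays, at 0.20 for the brighter and 0.60 for the dimmer, without scaling.

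The 12 names numbered from miR-2132 to miR-2146 formed the largest detected block, and miR-2142 is one of them. miR-2133, miR-2145 and miR-2138 were its other members called higher with scaling. miR-2133 read 422, 313 and 303 units in skin and 409, 481 and 815 in wound. Wound 6 stood far above the rest, and wound 3 lay below skin 1 before scaling. After scaling the groups separated, and miR-2133 rose by 1.25 ± 0.27 (adjusted p = 0.012 in limma), the largest difference among tagged names under this scaling. Without scaling the difference was 0.67 ± 0.31 (adjusted p = 0.14).

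miR-2145 read 1835, 1323 and 1572 units in skin and 1362, 2797 and 1929 in wound. Wound 4 was the highest array and wound 3 lay within the skin range. It rose by 0.90 ± 0.21 with scaling (adjusted p = 0.016 in limma), and the difference without scaling was 0.31 ± 0.30 (adjusted p = 0.44).

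miR-2138 read 6752, 4533 and 7490 units in skin and 3831, 6410 and 5756 in wound. The unscaled groups overlapped, and the wound mean of 5332 ± 1340 lay below the skin mean of 6258 ± 1539 (SD, n = 3 each). With scaling it rose by 0.35 ± 0.11 (adjusted p = 0.046 in limma), and without scaling the difference was -0.23 ± 0.29 (adjusted p = 0.56). The sign of its difference thus changed with the scaling, and the unscaled difference was smaller than its SE.

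miR-2141, the brightest member of the block after miR-2142, read 18567, 9473 and 17639 units in skin and 10353, 17983 and 13957 in wound. Skin 2 and wound 3 were low and the groups overlapped. Its share was 3.94%, 2.14% and 3.37% in skin and 2.68%, 3.98% and 3.08% in wound. The log2 difference was 0.50 ± 0.22 with scaling (adjusted p = 0.11 in limma) and -0.09 ± 0.35 without (adjusted p = 0.88).

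The remaining members of the block did not pass the test with or without scaling. miR-2132 read 4111, 2879 and 4161 units in skin and 2545, 4761 and 3077 in wound. miR-2135 read 2161, 1770.0 and 2143 in skin and 1212, 2569 and 2380 in wound. In both names wound 3 was the lowest array and wound 4 the highest. miR-2132 gave log2 differences of 0.45 ± 0.20 with and -0.13 ± 0.29 without scaling, and miR-2135 gave 0.53 ± 0.18 and -0.05 ± 0.32. miR-2135 just missed the threshold with scaling (adjusted p = 0.051 in limma), and its scaled groups did not overlap.

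miR-2134, miR-2140 and miR-2146 had lower mean signals in wound before scaling. miR-2146 read 3095, 2756 and 3484 units in skin and 1597, 2442 and 2238 in wound, so every wound array was below every skin array. Its log2 difference was -0.59 ± 0.20 without scaling (adjusted p = 0.059 in limma) and -0.01 ± 0.07 with it (adjusted p = 0.97). miR-2134 read 1412, 1029 and 1671 units in skin and 639, 964 and 1129 in wound. miR-2140 read 5053, 3994 and 6316 in skin and 2566, 4920 and 3967 in wound. The groups of both overlapped. miR-2134 gave log2 differences of -0.02 ± 0.10 with scaling and -0.60 ± 0.29 without (adjusted p = 0.90 and 0.15 in limma), and miR-2140 gave 0.13 ± 0.14 and -0.45 ± 0.30 (adjusted p = 0.43 and 0.28).

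miR-2144 and miR-2143 were the dimmest of the block. miR-2144 read 358, 202 and 396 units in skin and 144, 292 and 257 in wound. miR-2143 read 86.4, 35.8 and 89.9 in skin and 26.9, 72.7 and 41.6 in wound. Wound 3 was the lowest array for both, and both groups overlapped. Their log2 differences were 0.11 ± 0.21 and -0.01 ± 0.39 with scaling, and -0.47 ± 0.39 and -0.51 ± 0.50 without (adjusted p = 0.38 and 0.46 in limma). The wound 3 value of miR-2143 lay below the floor of 31.8 units that unscaled signals were raised to, which compresses its unscaled difference.

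**Figure D3:**
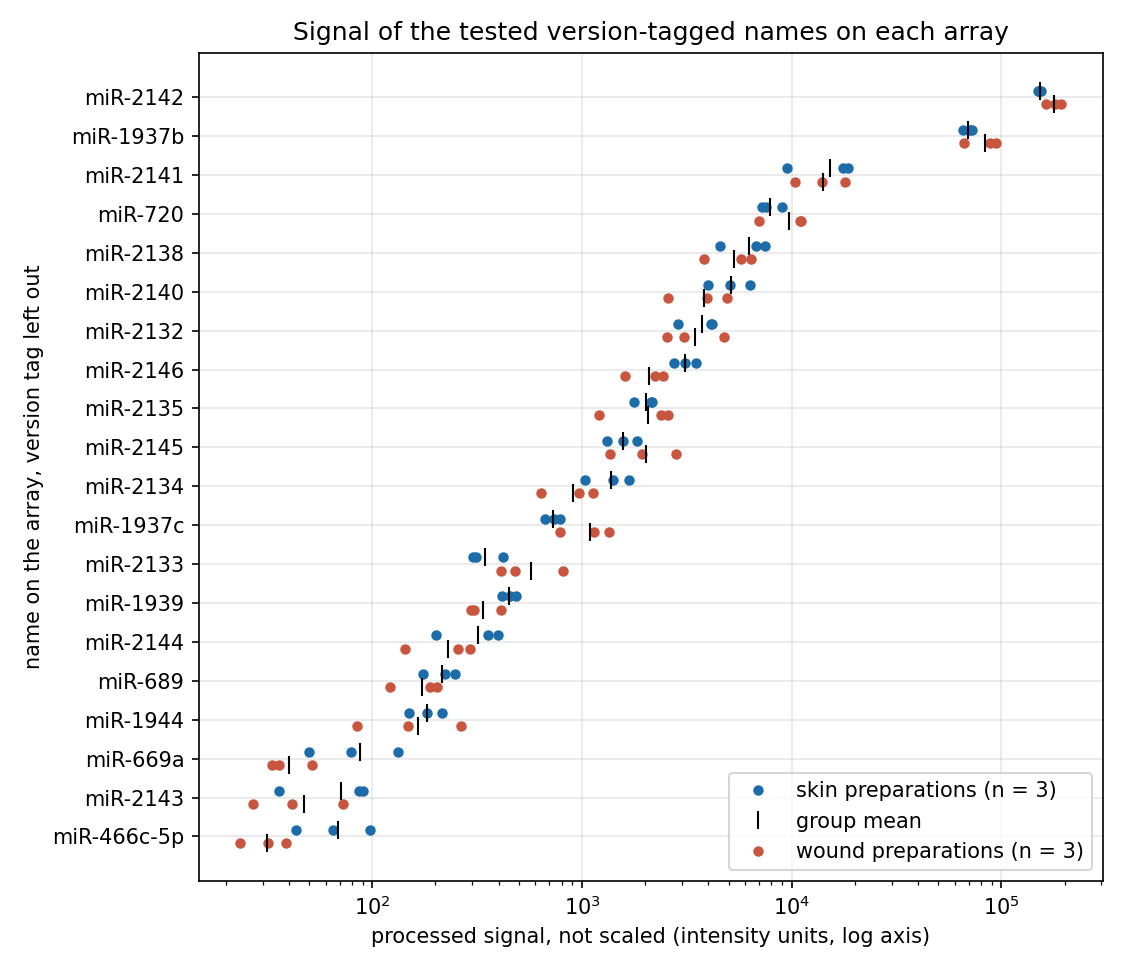
Each point is the processed signal of 1 tested tagged name on 1 array, not scaled, on a log axis in intensity units, with skin arrays in blue, wound arrays in red and a bar at each group mean. The names span 23.4 to 193343 units, and the arrays of miR-2142 lie closer together than those of any other tagged name.

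Outside the block and the tRNA-linked names, 5 tagged names were tested and limma called none of them with or without scaling. miR-1939 read 485, 417 and 451 units in skin and 307, 409 and 295 in wound, with every wound array below every skin array. Its log2 difference was -0.43 ± 0.15 without scaling (adjusted p = 0.070 in limma) and 0.15 ± 0.20 with it (adjusted p = 0.57). miR-1944 read 150, 214 and 182 units in skin and 84.3, 264 and 147 in wound, a spread in wound that covered the skin range. miR-689 read 248, 174 and 222 in skin and 122, 205 and 189 in wound. The log2 differences with and without scaling were 0.30 ± 0.39 and -0.28 ± 0.45 for miR-1944, and 0.24 ± 0.13 and -0.34 ± 0.25 for miR-689.

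miR-466c-5p and miR-669a belong to the large miRNA cluster in an intron of Sfmbt2, a Polycomb gene, as does the undetected miR-466b-5p. miR-669a read 50.2, 79.0 and 133 units in skin and 36.0, 51.5 and 33.2 in wound, and miR-466c-5p read 43.2, 65.0 and 97.8 in skin and 31.8, 38.7 and 23.4 in wound. Both were lowest on wound 6 and highest on skin 5. Their scaled log2 differences were -0.45 ± 0.38 and -0.40 ± 0.32, the only ones of the 20 below -0.1, and the unscaled ones were -1.03 ± 0.41 and -0.94 ± 0.32, with adjusted p of 0.092 and 0.063 in limma. The groups of miR-466c-5p did not overlap without scaling. However, its wound 3 value lay just below, and its wound 6 value further below, the floor of 31.8 units that unscaled signals were raised to. With scaling its wound 6 value was at the floor as well. This compresses its differences and limits the SE and p-values given for it. The slide's first row (skin 1, skin 2 and wound 3) gave scaled differences of -0.017 for miR-669a and 0.055 for miR-466c-5p, and its second row (skin 5, wound 4 and wound 6) gave -1.02 and -0.88. With 1 array left out they ranged from -0.80 (without skin 1) to -0.22 (without skin 5) for miR-669a and from -0.70 (without skin 1) to -0.21 (without wound 6) for miR-466c-5p.

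Which tagged names were called changed with the scaling, among other settings. With the 75th percentile of all probes, 0 were higher and 5 lower, miR-2134, miR-2140, miR-2146, miR-466c-5p and miR-669a, beside 23.4% and 34.2% of all tested names. None of these 5 was among the 5 called higher above. With the median of all probes 0 were higher and 2 lower, miR-1939 and miR-2146, beside 24.3% and 28.4%. That median was only 1.35 to 2.10 units, near zero signal, since most probes were undetected. With quantile normalization 7 were higher, miR-2132, miR-2133, miR-2135, miR-2138, miR-2145, miR-2146 and miR-720, and 2 lower, miR-466c-5p and miR-669a, beside 31.5% and 30.2%. When tagged probes were left out of the main percentile, 8 were higher and 0 lower, beside 46.8% and 19.8%.

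A scaling on control spots was added after the data were seen. The geometric mean of the 4 dmr_ control spots detected on all arrays was 2205 to 2663 units, with a log2 difference of -0.06 for skin minus wound. What these controls hold was not given in the sources used here. With them 0 tagged names were higher and 1, miR-466c-5p, lower, beside 20.7% and 26.1% of all tested names. miR-2133, miR-2138 and miR-2145 were called higher under 2 of these scalings besides the main one, quantile normalization and the percentile without tagged names. miR-2142 was called higher under the percentile without tagged names only. That percentile is the main one with the 36 tagged probes of its 275 left out, and it gave miR-2142 a log2 difference of 0.84 beside 0.81. It is therefore close to the main scaling by construction and no separate check of these calls. Quantile normalization gives the brightest names nearly equal values on every array by construction, so it is no check of miR-2142 or miR-1937b.

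Leaving out 1 array at a time, with scaling, kept miR-2133 and miR-2142 called in all 6 cases. Without skin 2, and also without skin 5, limma called those 2 alone, so miR-2145 lost its call in both. Of all tested names, 39.8%, 39.6% and 38.7% were called higher without skin 1, 2 and 5, and 40.4%, 41.4% and 42.2% without wound 3, 4 and 6. miR-1937c kept its call only without wound 4, and miR-2138 only without skin 1. All 6 arrays were on 1 slide, with skin 1, skin 2 and wound 3 in its first row and skin 5, wound 4 and wound 6 in the second. With the row as a block limma called 6, namely miR-1937b, miR-1937c, miR-2133, miR-2142, miR-2145 and miR-720, all higher, beside 43.7% of all tested names called higher and 19.4% lower. Within the first and second row the scaled difference was 0.88 and 0.99 for miR-2142, 0.96 and 1.71 for miR-2133, 0.60 and 1.23 for miR-2145, 1.37 and 1.30 for miR-1937c, and 0.26 and 0.37 for miR-2138.

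Arrays of 1 group did not move all tagged names alike. Before scaling, wound 3 was the lowest wound array for all 12 names of the block, and wound 4 the highest for 10 of them. The same order held for most untagged names detected on all arrays, with wound 3 lowest for 127 of 137 and wound 4 highest for 103. For miR-1937b, miR-1937c and miR-720 it was turned, with wound 4 the lowest wound array for 3 of 3. Among the 137 untagged names wound 4 was lowest for 2. Among skin arrays, skin 2 was lowest for 10 of the 12 and for 96 of the 137. This is a description of single arrays with no test, and names that share an array share its labelling and hybridisation.

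Spread between arrays of a group was wider for tagged than for untagged names after scaling. The median within-group SD on the log2 scale was 0.29 over the 19 tagged names detected on all arrays and 0.16 over the 137 untagged ones. Without scaling it was 0.39 and 0.32. Only 36 of the 275 probes behind the scaling belonged to tagged names, so dividing by it removes movement shared by untagged names by construction. The contrast after scaling therefore cannot be read as a trait of the tagged names. The spots of a probe on 1 array spread less for tagged names, with a median coefficient of variation of 6.64% against 8.17%; probes of both kinds differ in brightness, and the part of spot noise in the wider spread was not tested.

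Probes of 1 name mostly gave the same difference. Of 16 tagged names with 2 or more probes detected on all arrays, 13 had probes within 0.2 of each other in the unscaled log2 difference, with a median gap of 0.07. The wide gaps were those of miR-720 and miR-2142, given above, and of miR-2133, at 0.64 for the brighter and 0.87 for the dimmer probe. miR-2135 alone had probes of opposite sign, both near 0. In all 5 names with the largest gaps the dimmer probe gave the larger difference, as miR-1937c did with 0.49 and 0.68 and miR-1937b with 0.19 and 0.37.

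**Figure D4:**
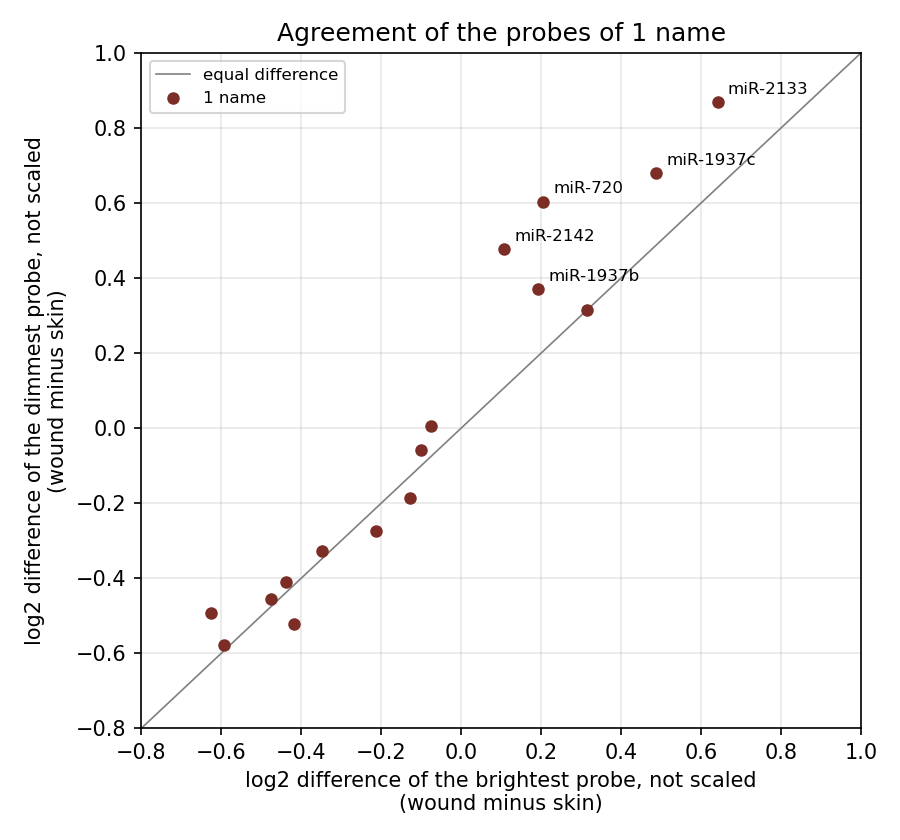
Each point is 1 of the 16 tagged names with 2 or more probes detected on all arrays, with the unscaled log2 difference, wound minus skin, of its brightest probe on the horizontal axis and of its dimmest probe on the vertical axis. Most points lie on or near the line of equal difference, with a median gap of 0.07, and the 5 named points lie above it.

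Untagged names with registry numbers in the same range served as a setting for the tagged ones. Of 70 untagged names numbered from miR-1892 to miR-2183, 6 were detected on all arrays, namely miR-1895, miR-1897-5p, miR-1904, miR-1949, miR-1982-5p and miR-2137, and 8 were tested. With scaling 3 were higher, miR-1897-5p by 0.49, miR-1904 by 0.95 and miR-2137 by 1.17 on the log2 scale, and 0 were lower, at an adjusted p under 0.05 in limma, beside 44.1% and 20.7% of all tested names. Without scaling 0 were higher and 1, miR-1892, was lower, by -0.86. Only 3 untagged names had numbers from miR-2132 to miR-2146, where 12 tagged names lay.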

How the data were processed

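Total RNA from sorted cells was labelled with Cy3 and hybridised to Agilent miRNA arrays, per the labels' protocols, and read with Feature Extraction 10.7.3.1, per the file headers. The deposited scanner files give spot intensity on a linear scale, background-subtracted and not normalized between arrays. A further deposited table holds log2 values, and how it was made was not given in the sources used here. Over 182 names compared, its 6 columns each equal 1 array's log2 total signal minus a constant (within 0.001). However, 0 of them equal the array their number names. Columns 1 to 3 equal wound 3, 4 and 6 in that order, and columns 4 to 6 equal skin 1, 2 and 5. For 4 of the 6 columns the array named and the array of equal values thus belong to different groups. The table was not used for tests, and each direction rests on the scanner file recorded for each title.

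Processed signals were averaged over spots without outlier flags and scaled to each array's 75th percentile of the 275 probes detected on all arrays. The probes of a name were averaged and set to at least 0.0253 (log2 of -5.30) before log2 was taken. A name was tested when at least 1 probe was detected on all 3 arrays of a group, which 222 of 690 passed. In R 4.3.3, limma 3.58.1 (two-sided, with lmFit and eBayes) was run over all of them, with Benjamini-Hochberg adjustment at 0.05. It was tested on simulated data. With 6 arrays, their number limits the precision. Every tagged name is accounted for, with values on each array for those detected on all 6. Untagged names given are the 5 brightest and the detected ones of neighbouring number. The members and lists were chosen with earlier results of these data known. Alternatives covered scaling, background correction, signal, probe summary, floor, filters, variance model, slide row and each array left out. Figures were drawn with matplotlib 3.10.9.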

Additional observations from a re-analysis of the deposited data

Results flagged for a closer look

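Control spots outside the comparisons carried signal well above background on all 6 arrays, far over the negative controls, whose highest value was 4.42 units. The mean over the arrays was 183285 units for hur_2, 33294 for hur_6, 28478 for hur_1, 15986 for hur_4 and 8972 for mr_1. What these controls hold was not given in the sources used here.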

How the results depend on the processing

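The share of signal held by tagged names stayed higher in wound by 11.8 to 16.8 percentage points under every alternative run for it, and 19 or 20 names were detected on all arrays. A share within an array cannot change when the array is divided by a constant, so its stability is no check of the scaling. Calls depended on the scaling, and the cause was not tested. The median difference of the tested tagged names, 0.33, turned to -0.36 with the 75th percentile of all probes, -0.26 with the median, -0.26 without scaling and -0.32 with dmr_ controls (added after the data were seen). The count of tagged names called, 5, was 2 with the median, 9 with quantile normalization, 0 without scaling, 8 without tagged names in the percentile, 0 with normexp, 3 with the floor raised 4 times, 0 without the filter on dim names, 8 with array weights, 1 with dmr_ controls and 2 to 6 with 1 array left out. Of all tested names, 144 were called, 22 with normexp and 78 with the higher floor. Directions that turned, in the order miR-1939, miR-1944, miR-2132, miR-2135, miR-2138, miR-2140, miR-2141, miR-2144 and miR-689, were -0.54, -0.38, -0.24, -0.15, -0.34, -0.55, -0.19, -0.57 and -0.45 with the 75th percentile of all probes. They were -0.44, -0.28, -0.14, -0.051, -0.23, -0.45, -0.087, -0.47 and -0.34 with the median. They were -0.43, -0.28, -0.13, -0.049, -0.23, -0.45, -0.085, -0.47 and -0.34 without scaling. They were -0.49, -0.34, -0.19, -0.11, -0.29, -0.51, -0.15, -0.53 and -0.40 with dmr_ controls. Quantile normalization, which sets the brightest names nearly equal by construction, gave miR-1937b -0.0057, and it turned miR-1939 to -0.086, miR-1944 to -0.30, miR-2134 to 0.056, miR-2144 to -0.35, miR-2146 to 0.23 and miR-689 to -0.34. Without tagged names in the percentile miR-2134 was 0.0056, miR-2143 0.015 and miR-2146 0.018. Normexp gave miR-2134 0.0067, miR-2140 -0.18, miR-2143 1.02, miR-466c-5p 0.99 and miR-669a 0.97. The total signal gave miR-1939 -0.0049, miR-2140 -0.023 and miR-2144 -0.044. The brightest probe gave miR-2143 0.036, array weights gave miR-2144 -0.029 and miR-2146 0.0013, and the slide-row block gave miR-2146 0.0060. With 1 array left out, miR-2134 ranged from -0.098 to 0.047, miR-2143 from -0.32 to 0.19, miR-2144 from -0.060 to 0.25, miR-2146 from -0.060 to 0.036, miR-1944 from -0.041 to 0.55 and miR-2140 from -0.0056 to 0.22. No paired analysis was made, because the running numbers in the titles do not show whether a skin and a wound preparation belong together. Signal over background limits miR-2143, miR-466c-5p and miR-669a, which lie near the floor.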
